A study of Mus musculus with 8 samples.

Results

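Axonemal dyneins are the motors that bend cilia and sperm tails. The 44 genes described here encode their heavy, intermediate and light chains, the proteins that dock and space them on the axoneme, and the factors that assemble them in the cytoplasm. They were chosen by gene symbol from a table of 56748 genes: the genes that the annotation used here or the RefSeq table names Dnah, Dnai or Dnaaf with a number, Dnal1, Dnal4, Dnali1, Dynlrb2, the Dynlt1 family, and 13 named docking, ruler and assembly genes. Of the 44, 43 were annotated as protein coding and 1, Dynlt1-ps1, as a processed pseudogene. The symbols of 3 members were matched through RefSeq names, since the annotation used here carries older ones: Dnaic1 and Dnaic2 are now Dnai1 and Dnai2, and Dyx1c1 is now Dnaaf4. A few genes with newer names of this kind, described below with their values, were not matched and are not among the 44. No member lies on the X or the Y chromosome.

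Transcripts of whole testis from adult mice were counted by RNA sequencing. The knockout group has the genotype Ssty2-/- (4 libraries) and the control group is wild type (4 libraries). Ssty2 is a multicopy Y-linked gene whose transcripts are found in spermatids, the post-meiotic cells that turn into sperm. The sources used here give neither the strain, nor the age in days, nor how the deletion was made. They also do not say that each library came from its own animal, and the p-values therefore reflect a spread among libraries that may be technical. In the wild-type libraries Ssty2 had 56, 78, 83 and 45 counts, and in each knockout library it had 0.

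The axoneme is a ring of doublet microtubules. Outer dynein arms, built on a pair of heavy chains with intermediate and light chains, set the beat frequency, and inner arms, which contain different heavy chains, shape the bend. Docking complex proteins hold the outer arms at regular intervals, and the CCDC39 and CCDC40 ruler sets the spacing of the inner arms. Arms are folded and put together in the cytoplasm before they enter the tail, with the help of DNAAF proteins and chaperones. In the testis these genes are transcribed in spermatocytes and spermatids, ahead of and during tail formation, and loss of many of them makes sperm immotile.

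Most of these genes rose modestly in the knockout, while Dnah8, 1 of the 2 outer arm heavy chains of sperm, and the outer arm docking gene Ccdc114 fell. All 44 passed the filter on low counts, and 26 rose, 4 fell and 14 did not pass the test. Across all 21952 genes tested, 53.5% were called, with 26.2% higher and 27.4% lower. Among the members 59.1% were higher and 9.09% lower. The median log2 fold change of the members was 0.19, against -0.01 over all tested genes. Values of the 4 knockout and the 4 wild-type libraries did not overlap for 25 of the 44 members, against 46.7% of all tested genes. The genes were called by edgeR's quasi-likelihood test with Benjamini-Hochberg adjustment over all tested genes, at an adjusted p under 0.05. In bulk tissue, fewer cells of a type and less RNA per cell cannot be told apart.

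These counts depend on how the libraries are scaled. Levels are given as CPM, the count as a rate per library size, with the sizes scaled by TMM (a trimmed mean of log ratios between libraries). With plain library totals in place of TMM, the median log2 fold change of all genes moved by -0.14, the share of all calls that were higher fell from 48.9% to 31.8%, and the members split into 13 higher and 8 lower. Under that scaling 13 of the 26 rises no longer passed the test, and none of the 30 calls turned to the other direction. Relative to the other genes of the testis the members are therefore described by TMM, and a rise of about 0.14 or less on this scale is not separable from the choice of scaling. Over all 17 other settings run, 12 rises (Dnah3, Dnah5, Dnah10, Dnaic1, Dnali1, Dynlt1f, Ttc25, Armc4, Ccdc103, Dnaaf1, Dnaaf3 and Pih1d1) and 3 falls (Dnah8, Dnah11 and Ccdc114) kept their call. Dynlt1f had values in 16 of them, since its copies were summed in the other. That sum did not pass edgeR's quasi-likelihood test (adjusted p = 0.248), so the rise of Dynlt1f alone is uncertain.

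**Figure D1:**
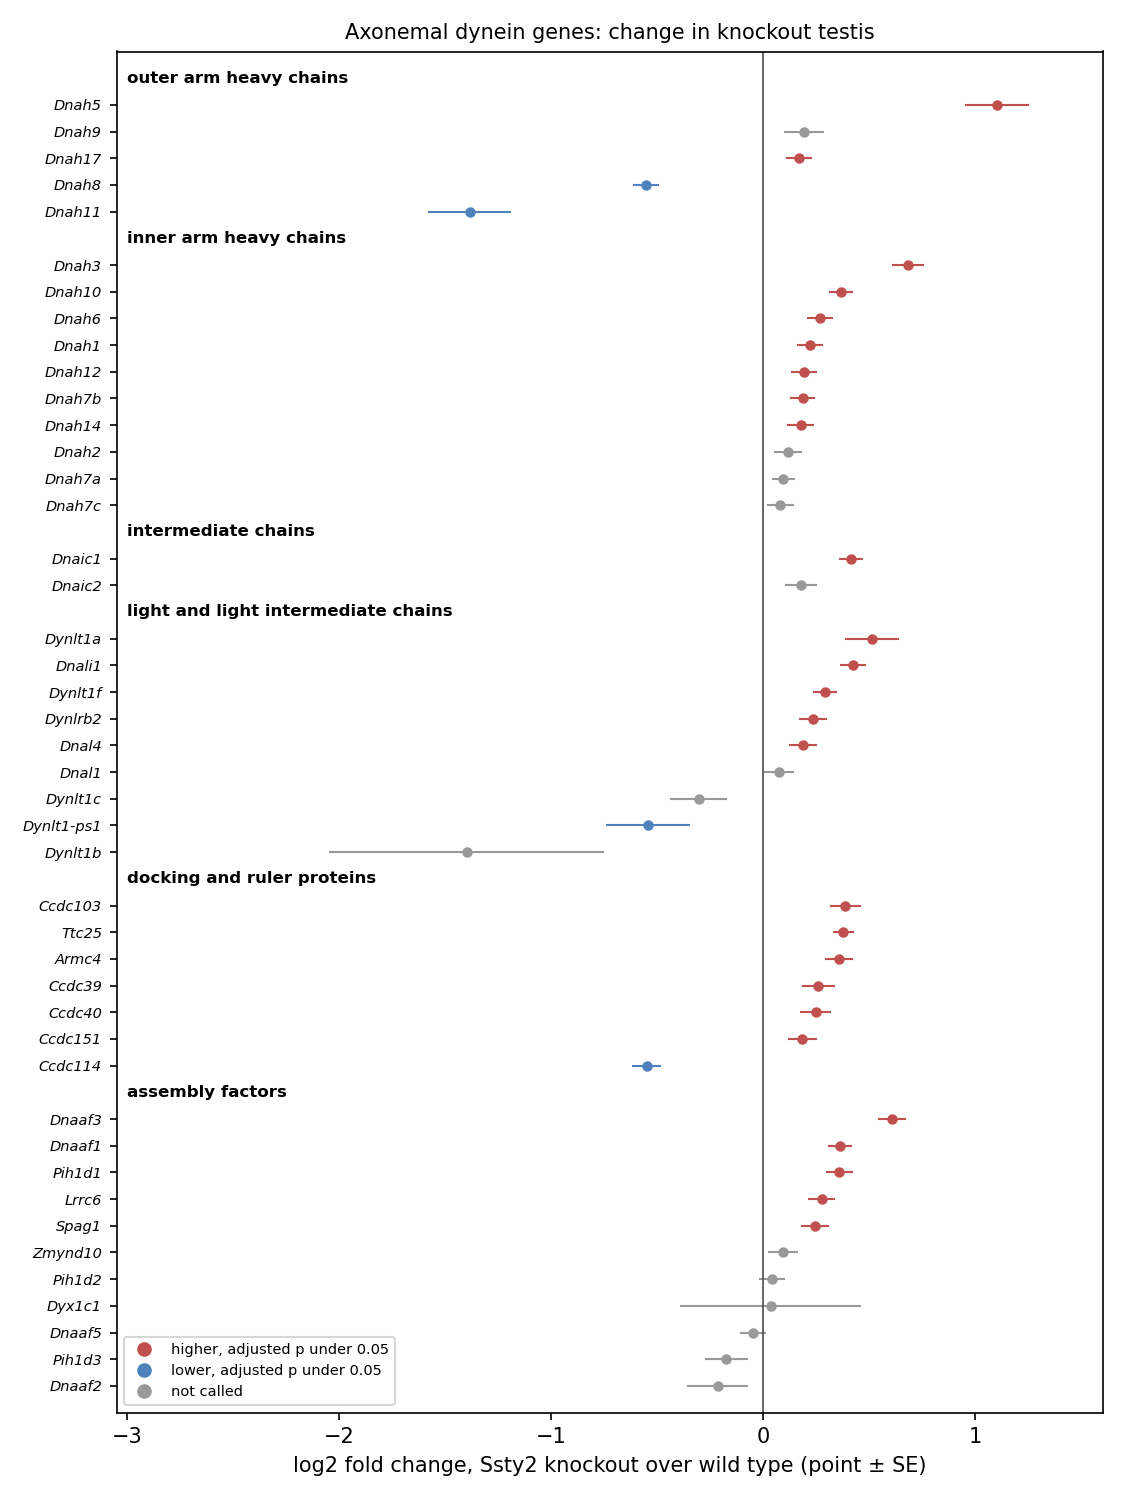
Log2 fold change of each of the 44 genes in Ssty2 knockout over wild-type testis (horizontal axis; point ± SE), grouped by role. Red points were called higher (26), blue points lower (4) and grey points were not called (14); the outer arm heavy chains spread from -1.38 to 1.10, whereas all 10 inner arm heavy chains lie above 0, although Dnah2, Dnah7a and Dnah7c fall below 0 under scaling by library totals.

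The outer arm heavy chains went in both directions. Of 5, 2 rose, 2 fell and 1 did not pass the test (1 rose and 2 fell under library totals). Dnah8 encodes the heavy chain that takes the place of DNAH5 in sperm tails, and it was the most abundant heavy chain transcript. It measured 1068, 1157, 1101 and 1066 CPM in the knockout libraries and 1822, 1590, 1547 and 1481 in wild type. Every knockout library lay below every wild-type library, and the level dropped by 0.55 in log2 units (SE 0.061; adjusted p = 1.96e-06), or 1.47-fold. Dnah17, which encodes the partner heavy chain of DNAH8 in sperm, measured 521, 545, 542 and 502 CPM in knockout and 531, 449, 465 and 433 in wild type. Wild-type replicate 1 lay within the knockout range. The log2 fold change of Dnah17 was 0.17 (SE 0.061, adjusted p = 0.0282), and this call was lost in 7 of 17 other settings, among them those without knockout replicate 2 (0.0677) or 3 (0.0634) and without wild-type replicate 2 (0.0835), 3 (0.0708) or 4 (0.117). The adjusted p of Dnah17 ran from 0.00274 to 0.712 over those settings.

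The 2 sperm heavy chains therefore shifted against each other. The ratio of Dnah17 to Dnah8 counts was 0.481 ± 0.0114 in knockout and 0.292 ± 0.0074 in wild type (mean ± SD, n = 4). The lowest knockout ratio was 0.471 and the highest wild-type ratio 0.301. A ratio within a library does not depend on the scaling, but this one was chosen after the values of both genes had been seen, and it is given without a test.

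The outer arm heavy chains of motile cilia outside the testis were scarce. Dnah5, the outer arm heavy chain of airway cilia, measured 5.21, 4.46, 4.83 and 4.77 CPM in knockout and 1.90, 2.36, 2.26 and 2.40 in wild type. The groups did not overlap, and the rise was 2.15-fold (log2 fold change 1.10, SE 0.15, adjusted p = 1.55e-05). Dnah11, an outer arm heavy chain of airway and nodal cilia, went the other way. It measured 1.13, 2.35, 1.89 and 1.98 CPM in knockout and 4.12, 4.72, 5.61 and 4.81 in wild type. This was a 2.61-fold drop (log2 fold change -1.38, SE 0.20, adjusted p = 2.2e-05) on totals of 145 and 432 counts. Dnah9, the partner of DNAH5 in airway cilia, measured 12.3 ± 0.975 CPM in knockout and 10.8 ± 0.361 in wild type. Its groups did not overlap, yet its log2 fold change of 0.19 did not pass the test (adjusted p = 0.0983).

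**Figure D2:**
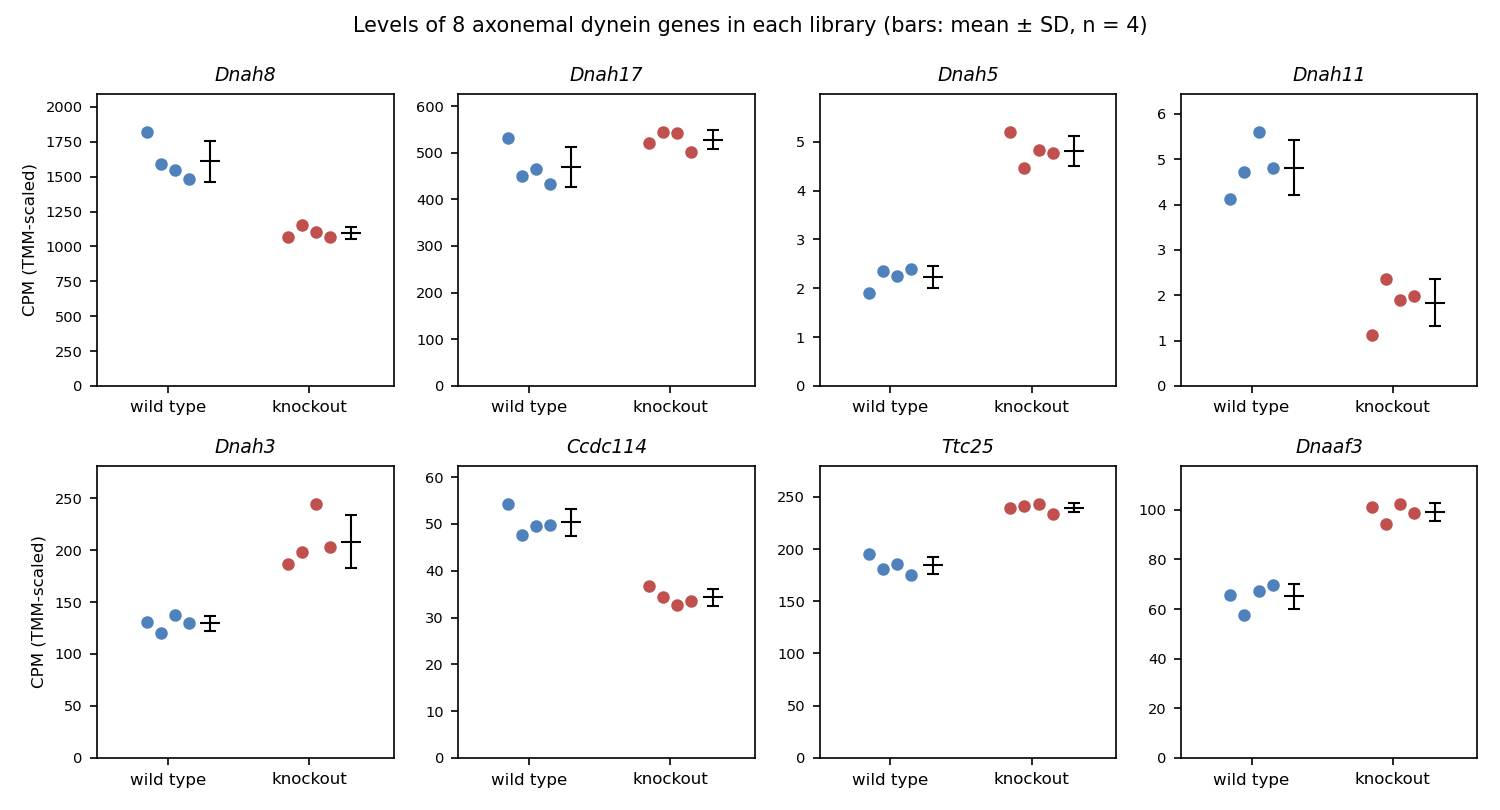
Level in each library (vertical axis, CPM scaled by TMM, starting at 0) of 8 genes in wild type (blue) and Ssty2 knockout (red); black marks are mean ± SD, n = 4. The groups are separate for Dnah8, Dnah5, Dnah11, Dnah3, Ccdc114, Ttc25 and Dnaaf3, and overlap for Dnah17.

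Of the 10 inner arm heavy chains, 7 rose, none fell and 3 did not pass the test, whereas under library totals 2, Dnah3 and Dnah10, rose and none fell. Dnah3, a single-headed inner arm heavy chain, had the largest rise of the 10. It measured 186, 198, 245 and 203 CPM in knockout and 131, 120, 137 and 130.0 in wild type. Every knockout library lay above every wild-type library, and the log2 fold change was 0.68 (SE 0.074, adjusted p = 1.69e-06). Dnah10, which with DNAH2 forms the double-headed inner arm, measured 147, 148, 144 and 146 CPM in knockout and 122, 111, 117 and 105 in wild type. Its knockout libraries were closely spaced and all above wild type, with a log2 change of 0.37 (SE 0.055, adjusted p = 4.52e-05). Dnah2 itself measured 230.3 ± 4.36 CPM in knockout and 212 ± 23.9 in wild type, and its log2 fold change of 0.12 did not pass the test (adjusted p = 0.155).

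Dnah6, another single-headed inner arm chain, measured 155, 165, 161 and 155 CPM in knockout and 144, 130.0, 137 and 118 in wild type. The groups did not overlap and the log2 fold change was 0.27 (SE 0.062, adjusted p = 0.00176). Dnah1, whose loss disrupts the sperm tail, measured 224, 237, 226 and 217 CPM in knockout and 218, 189, 192 and 177 in wild type. Wild-type replicate 1 reached into the knockout range, and the log2 fold change was 0.22 (SE 0.062, adjusted p = 0.0062). Dnah12 rose by 0.19, Dnah7b by 0.19 and Dnah14 by 0.18 on the log2 scale. The calls of Dnah12, Dnah7b and Dnah14 were lost in 3, 3 and 5 of the other settings, respectively. Without knockout replicate 2, for example, their adjusted p values were 0.0551, 0.053 and 0.0707.

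Dnah7a, Dnah7b and Dnah7c are neighbouring copies on chromosome 1. The 3 genes share 54.2%, 40.1% and 61.6% of their 31-base words with other genes, so the counting could have moved reads among them. Dnah7a and Dnah7c had log2 fold changes of 0.09 (adjusted p = 0.159) and 0.08 (adjusted p = 0.302) by edgeR's quasi-likelihood test. Summed before the fit, the 3 copies measured 514 ± 32.6 CPM in knockout and 472 ± 24.3 in wild type, and the log2 fold change of 0.12 did not pass the test (adjusted p = 0.0729). The rise of Dnah7b alone is therefore uncertain.

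Levels of different genes can be compared only per length, as CPM per kb of exon. On that scale Dnah8 led in wild type at 60.03 ± 5.54, followed by Dnah17 at 29.1 ± 2.66. The 10 inner arm heavy chains lay close together, from 7.06 ± 0.452 for Dnah10 to 14.9 ± 1.32 for Dnah1, and Dnah1, Dnah2 and Dnah12 did not differ beyond their spread. Dnah9 (0.674 ± 0.0226), Dnah11 (0.333 ± 0.0423) and Dnah5 (0.143 ± 0.0145) formed a low group. In knockout Dnah8 was still first at 40.9 ± 1.59 and Dnah17 second at 32.7 ± 1.27. Dnah11 and Dnah5 changed places at the bottom, to 0.127 ± 0.0354 and 0.308 ± 0.0196. Of the 15 heavy chains 9 rose and 2 fell, with a median log2 fold change of 0.19. Of 1449 other tested genes with at least 10 kb of exon 310 rose and 510 fell, with a median of -0.08. With a trend with exon length taken out of each library, all 10 inner arm heavy chains rose (median 0.27). Of the 5 outer arm ones 3 then rose and 2 fell (median 0.24). The part of length in the heavy chains' changes was not tested beyond this.

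**Figure D3:**
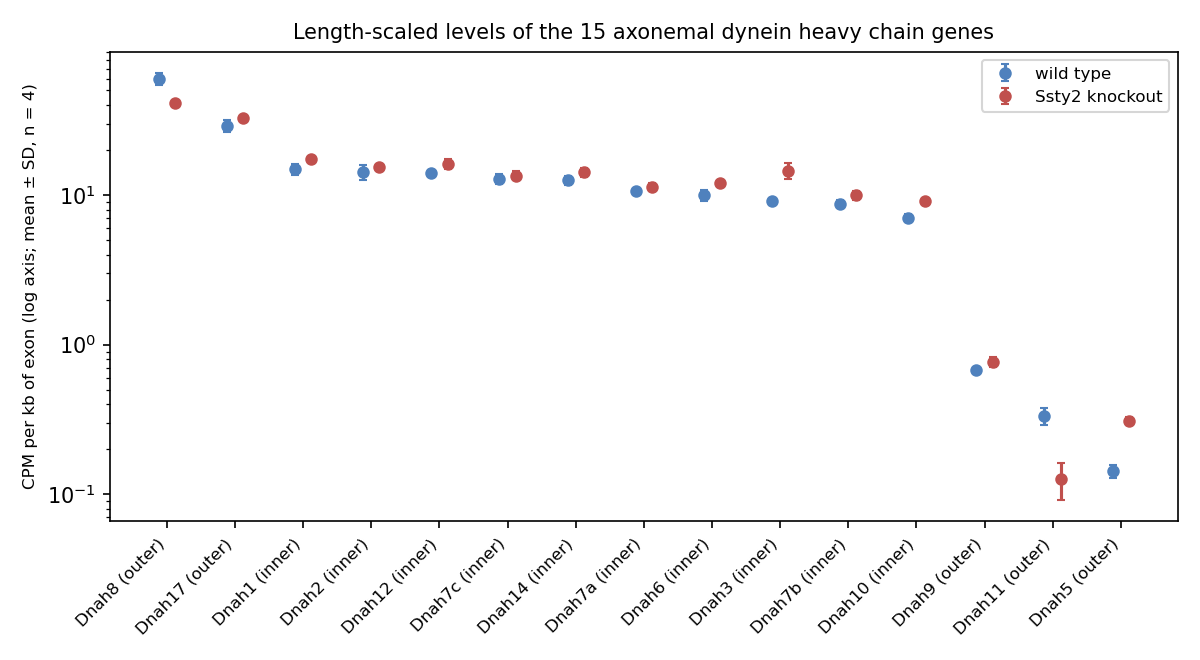
Level of the 15 heavy chain genes per length (vertical log axis, CPM per kb of exon; mean ± SD, n = 4), in wild type (blue) and Ssty2 knockout (red), ordered by the wild-type level, with outer or inner arm after each name. Dnah8 and Dnah17 lie above the inner arm genes and approach each other in knockout, and the 3 lowest genes are Dnah9, Dnah11 and Dnah5.

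Intermediate chains sit at the base of the outer arm. Dnaic1 measured 117, 123, 112 and 111 CPM in knockout and 93.0, 84.2, 86.0 and 84.0 in wild type. All knockout libraries were above all wild-type libraries, with a log2 change of 0.42 (SE 0.057, adjusted p = 1.76e-05). Dnaic2, which pairs with it, measured 94.9, 109, 90.6 and 91.6 CPM in knockout and 96.8, 83.9, 79.1 and 81.9 in wild type. Wild-type replicate 1 was higher than 3 of the 4 knockout libraries, and the log2 fold change of 0.18 (SE 0.074) missed the threshold at an adjusted p of 0.0523. It passed in 10 of 17 other settings. The genes now named Dnai3, Dnai4 and Dnai7 are Wdr63, Wdr78 and Casc1 in the annotation used here and are not among the 44. Casc1 (0.46) and Wdr78 (0.31) rose, and Wdr63 had a log2 fold change of 0.02 (adjusted p = 0.788 by edgeR's quasi-likelihood test).

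Of the 9 light and light intermediate chain genes, 5 rose, 1 fell and 3 did not pass the test (3 rose and 2 fell under library totals). Dnali1 encodes the light intermediate chain of inner arms. It measured 220.3, 213, 208.0 and 198 CPM in knockout and 176, 151, 151 and 148 in wild type. The groups did not overlap and the log2 fold change was 0.42 (SE 0.061, adjusted p = 3e-05). Dynlrb2, the roadblock light chain of testis, measured 72.6, 64.2, 62.5 and 62.1 CPM in knockout and 57.5, 53.2, 57.1 and 54.1 in wild type. Its log2 fold change was 0.24 (SE 0.065, adjusted p = 0.00614), and it was -0.06 once a trend with exon length was taken out of each library. Dnal4, a light chain of outer arms, rose by 0.19 on the log2 scale (adjusted p = 0.0224), a call lost in 5 other settings. Dnal1, the light chain that binds the outer arm heavy chain motor, had a log2 fold change of 0.07 (adjusted p = 0.403).

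The Dynlt1 genes, which encode a Tctex1-type light chain shared by axonemal and cytoplasmic dynein, include Dynlt1b, the member with the largest SE of the 44. The 4 copies of this cluster (Dynlt1a, Dynlt1b, Dynlt1c and Dynlt1f) lie near each other on chromosome 17, and the pseudogene Dynlt1-ps1 is on chromosome 6. Their sequences show how little separates them. In the GRCm38 reference 342 bases from the start codon were compared in each, a length set by the transcript of Dynlt1-ps1. Over these bases Dynlt1b differs from each of the others at 1 position, so that 99.7% of bases are identical. The exons of the 4 copies are longer, at 771 to 4267 bases. The first 60 bases of each follow, 5′ to 3′, with the position that differs, position 21 counted from the first base of the start codon, in capitals.
Dynlt1b: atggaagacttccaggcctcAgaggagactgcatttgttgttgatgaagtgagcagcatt
Dynlt1a: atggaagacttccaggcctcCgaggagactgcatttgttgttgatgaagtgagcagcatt
Dynlt1c: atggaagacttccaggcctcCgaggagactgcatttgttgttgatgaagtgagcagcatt
Dynlt1f: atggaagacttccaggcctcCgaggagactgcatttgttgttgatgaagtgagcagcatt
Dynlt1-ps1: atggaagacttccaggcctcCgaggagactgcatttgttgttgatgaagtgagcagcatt

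Between 78.6% and 100% of the 31-base words of these 5 genes occur in another gene, so the counting could have moved reads among them. The sources used here do not say how reads that match several places were treated. The coding comparison and the sums below were chosen after the values had been seen.

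Dynlt1b split the knockout libraries. It had 19, 1148, 26 and 1034 counts in knockout replicates 1 to 4 and 1435, 1617, 2032 and 1695 counts in wild type. As levels these are 1.02, 53.9, 1.23 and 60.2 CPM against 73.9, 70.7, 79.1 and 81.5. Knockout replicates 1 and 3 were near 0 and replicates 2 and 4 were somewhat below wild type. All 4 lay below every wild-type library, but with this spread the log2 fold change of -1.40 (SE 0.65) did not pass the test (adjusted p = 0.0789). Dynlt1a was the mirror image, with 181, 113, 170 and 108 CPM in knockout and 101, 97.3, 105 and 97.9 in wild type. Knockout replicates 1 and 3 carried the excess. Over all 4 the log2 fold change of Dynlt1a was 0.51 (SE 0.13, adjusted p = 0.00298).

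The sum of Dynlt1a and Dynlt1b was even across libraries. It measured 182, 167, 172 and 168 CPM in knockout and 174, 168, 184 and 179 in wild type, and the groups overlapped. Dynlt1b made up 0.298%, 15.6%, 0.376% and 18.0% of the 4 copies in knockout and between 22.7% and 25.1% in wild type. The 4 copies together measured 337 ± 7.85 CPM in knockout and 321 ± 15.4 in wild type, with a log2 fold change of 0.07 (SE 0.050) that did not pass the test (adjusted p = 0.248).

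The other copies also differed between those libraries, though less. Dynlt1-ps1 measured 3.11, 6.10, 2.89 and 4.42 CPM in knockout and 5.30, 5.86, 6.19 and 6.78 in wild type. Knockout replicates 1 and 3 were lowest and replicate 2 lay within the wild-type range; the log2 fold change was -0.54 (SE 0.20, adjusted p = 0.0277). Dynlt1c measured 18.8, 29.7, 18.4 and 25.5 CPM in knockout and 23.7, 29.6, 32.6 and 28.0 in wild type, a log2 fold change of -0.30 (adjusted p = 0.0662). Dynlt1f was even within groups, at 142, 148, 137 and 141 CPM in knockout and 109, 114, 124 and 118 in wild type. For Dynlt1f the log2 fold change was 0.29 (SE 0.055, adjusted p = 3.41e-04), and the 2 groups did not overlap.

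Without knockout replicates 1 and 3, an alternative added after the values had been seen, Dynlt1a no longer passed the test (0.14, adjusted p = 0.103), nor did Dynlt1-ps1 (-0.18, adjusted p = 0.412). Dynlt1b then did pass (-0.42, adjusted p = 4.67e-04). The adjusted p of Dynlt1b ran from 1.9e-75 to 0.338 over its alternatives, that of Dynlt1a from 5.91e-14 to 0.103 and that of Dynlt1-ps1 from 0.00137 to 0.412. Over all 44 members the counts without those 2 libraries were 23 higher and 4 lower.

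The same libraries stood apart at some, not all, of the genes and pseudogenes next to these copies. Tmem181b-ps measured 0.483, 7.51, 0.331 and 7.57 CPM in knockout and 13.02, 13.9, 12.6 and 11.8 in wild type. Tmem181c-ps measured 0.429, 4.23, 1.09 and 4.83 CPM in knockout and 4.79, 4.46, 3.66 and 3.85 in wild type. At Tmem181b-ps all knockout libraries were below wild type, and at Tmem181c-ps only knockout replicates 1 and 3 were. Gm2792 was also lowest in those 2 libraries, at 0.215, 2.35, 0.71 and 2.21 CPM in knockout and 1.80, 1.88, 1.32 and 1.63 in wild type. Ppp1r2-ps1, between Dynlt1a and Dynlt1b, did not follow this split. It measured 19.5, 4.13, 6.58 and 11.2 CPM in knockout and 2.99, 2.23, 1.83 and 2.31 in wild type, and it rose 4.43-fold (adjusted p = 1.09e-04). Tmem181a and Sytl3, at the ends of the stretch, did not pass the test. Neither was low in knockout replicates 1 and 3, and both were higher there than in any other library. In knockout replicates 1 and 3 Tmem181a measured 11.4 and 15.6 CPM, against at most 11.02 in wild type. Sytl3 measured 1.66 and 1.56 CPM in these libraries, against at most 1.32 in wild type. These neighbours were looked at after the Dynlt1b values had been seen, and the cause of the pattern was not tested.

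**Figure D4:**
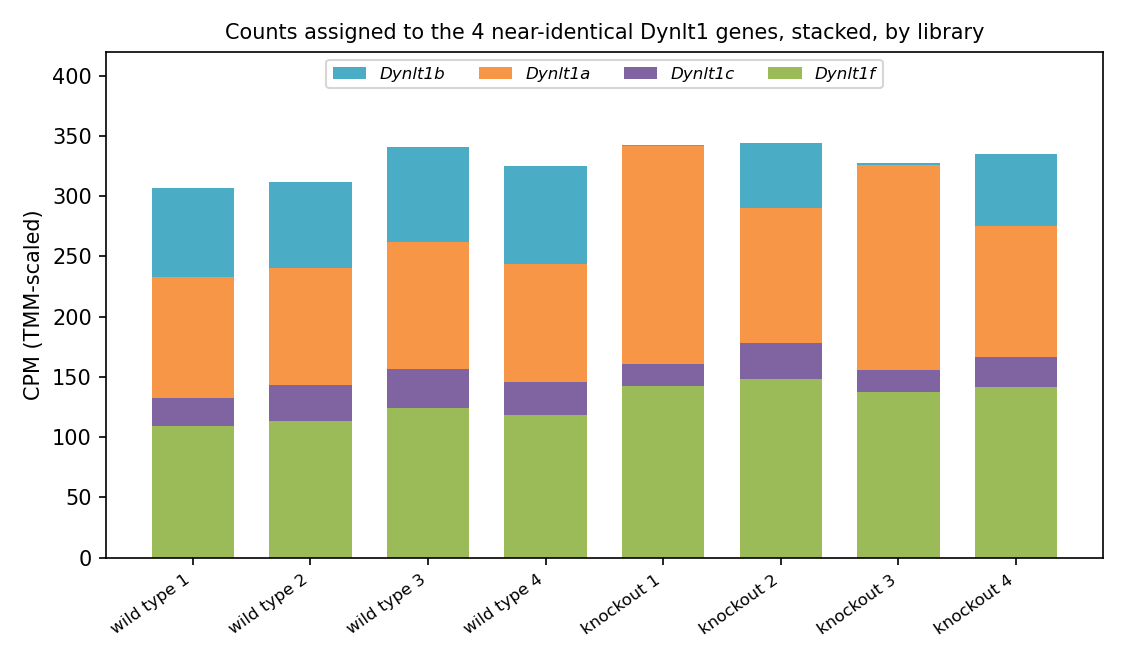
Counts assigned to the 4 near-identical Dynlt1 genes of chromosome 17, stacked, in each library (vertical axis, CPM scaled by TMM; bars start at 0). Dynlt1b (top, turquoise) is at 1.02 and 1.23 CPM in knockout replicates 1 and 3, where Dynlt1a (orange) is at 181 and 170, while the whole bar stays between 307 and 344 in all 8 libraries.

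The 7 docking and ruler genes all passed the test, 6 of them upward, and under library totals 3 rose and 1 fell. The exception, Ccdc114, encodes a core protein of the outer arm docking complex. It measured 36.8, 34.5, 32.7 and 33.5 CPM in knockout and 54.4, 47.7, 49.5 and 49.8 in wild type. The groups did not overlap, and the drop was 1.46-fold (log2 fold change -0.55, SE 0.068, adjusted p = 5.78e-06). Ccdc151, which encodes the binding partner of CCDC114 in the docking complex, measured 73.4 ± 4.67 CPM in knockout and 64.7 ± 4.93 in wild type. Its log2 fold change of 0.18 passed the test (adjusted p = 0.0323) but was lost in 7 of 17 other settings. The ratio of Ccdc151 to Ccdc114 was 2.14 ± 0.145 in knockout and 1.29 ± 0.0877 in wild type (mean ± SD, n = 4), again a ratio chosen after the values were seen.

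Ttc25, another docking complex gene, measured 239, 241, 243 and 233 CPM in knockout and 195, 181, 186 and 175 in wild type. Every knockout library was above every wild-type library (log2 fold change 0.38, SE 0.050, adjusted p = 1.34e-05). Armc4, needed for outer arm docking, measured 72.0, 62.4, 67.7 and 75.6 CPM in knockout and 53.6, 53.1, 56.5 and 53.6 in wild type. These groups were also separate, with a log2 change of 0.36 (SE 0.066, adjusted p = 2.93e-04). Ccdc103, a small protein that attaches arms to microtubules, measured 38.9, 43.1, 44.8 and 43.9 CPM in knockout and 35.6, 30.7, 34.0 and 30.1 in wild type. The log2 fold change of Ccdc103 was 0.39 (SE 0.074, adjusted p = 3.85e-04). The ruler genes Ccdc39 and Ccdc40 rose by 0.26 and 0.25 on the log2 scale, with overlapping groups, and lost the call only when libraries were scaled by their totals.

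Of the 11 assembly factor genes, 5 rose and none fell, with a median log2 fold change of 0.09, but under library totals 3 rose and 3 fell, with a median of -0.05. Dnaaf3, a cytoplasmic factor for both kinds of arm, measured 101, 94.5, 102 and 98.6 CPM in knockout and 65.7, 57.7, 67.1 and 69.8 in wild type. The groups were well apart, and the rise was 1.52-fold (log2 fold change 0.61, SE 0.064, adjusted p = 1.24e-06). Dnaaf1, a leucine-rich repeat assembly factor, was the most abundant of the 11 per length, at 238 ± 15.1 CPM per kb of exon in wild type. It measured 909, 881, 870 and 796 CPM in knockout and 716, 619, 657 and 695 in wild type. All knockout libraries exceeded all wild-type libraries (log2 fold change 0.36, SE 0.057, adjusted p = 6.5e-05).

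Pih1d1, a subunit of the R2TP chaperone complex, measured 174, 164, 153 and 143 CPM in knockout and 127, 117, 123 and 128 in wild type. Its log2 fold change was 0.36 (SE 0.063, adjusted p = 1.66e-04) without overlap. Lrrc6, a partner of ZMYND10 in assembly, measured 110, 125, 122 and 118 CPM in knockout and 87.5, 102, 105 and 98.6 in wild type. Its groups were separate too (log2 fold change 0.27, SE 0.065, adjusted p = 0.00193). Spag1 rose by 0.24 on the log2 scale (adjusted p = 0.00552), a call lost under library totals, as was that of Lrrc6.

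The other 6 assembly factors did not pass the test. Zmynd10, the partner of LRRC6, measured 227 ± 23.0 CPM in knockout and 212 ± 17.2 in wild type (log2 fold change 0.09). The log2 fold changes of Pih1d2 and Dnaaf5 were 0.04 and -0.05. Pih1d3 and Dnaaf2, both of the PIH-domain type, had log2 fold changes of -0.17 (adjusted p = 0.165) and -0.21 (adjusted p = 0.219). Dyx1c1 had only 135 counts in all 8 libraries, and a difference was not detectable at this depth (log2 fold change 0.03, SE 0.43). In the annotation 59.2% of the exon bases of Dyx1c1 and 38.7% of those of Dnaaf2 overlap another gene on the same strand. Overlapping genes cannot be told apart in these counts.

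A gene outside the rule, Pih1h3b (the X-linked Dnaaf6b of RefSeq, closely related to Pih1d3), measured 2.58, 2.72, 3.31 and 2.74 CPM in knockout and 0.824, 1.27, 1.09 and 1.25 in wild type. It rose 2.55-fold (log2 fold change 1.35, SE 0.20, adjusted p = 3.62e-05), whereas the autosomal Pih1d3 was at 12.5 ± 1.46 and 14.1 ± 1.12 CPM. The difference between the 2 genes was not tested, and Pih1h3b was singled out after its values had been seen. Wdr92, now named Dnaaf10 and also outside the 44, fell by 0.28 on the log2 scale (adjusted p = 0.00905). With the 4 renamed genes the counts would be 28 higher and 5 lower.

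Genes that work beside the arms were read from lists that were drawn up with the earlier results known. Of 24 tested partners outside the rule, 17 rose and 2 fell (median log2 fold change 0.24; 9 and 4 under library totals). Cfap45 and Cfap100, which encode proteins of the doublet lumen and of the inner arm base, rose by 0.51 and 0.69, and Dynlrb1, the ubiquitous roadblock chain, fell by 0.68. The other that fell was Nme9 (-1.69), named because it was 1 of 2. The 9 genes of the nexin-dynein regulatory complex, which links doublets and governs the arms, all rose (median 0.38; 5 of 9 under library totals), and those with the smallest p were Fbxl13 (0.73), Ccdc65 (0.48) and Iqcd (0.39).

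Of 16 chaperones that help to fold arm subunits 3 rose and 6 fell, with a median log2 fold change of -0.09 (1 and 11 under library totals). The shares under TMM, 18.8% and 37.5%, lie near the 26.2% and 27.4% of all tested genes, and a difference from the members was not tested. Under library totals all tested genes also shifted down, to a median of -0.15, and 31.8% of all calls were higher. The cytosolic chaperones Hsp90ab1 and Hspa8 fell by 0.49 and 0.42, and Hspa1l, an HSP70 of spermatids, rose by 0.48. Among 23 genes of cytoplasmic dynein and dynactin, which carry cargo along microtubules, 9 rose and 2 fell (median 0.06). Under library totals 4 rose and 8 fell (median -0.08). The list also holds genes of the dynein that works inside cilia, such as Dync2h1 and Wdr60, so it is not free of ciliary genes. Wdr60, Dctn6 and Dctn3 rose by 0.51, 0.52 and 0.52. In this list 39.1% were higher, against 59.1% of the axonemal members and 26.2% of all tested genes; the difference between the lists was not tested.

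Of 12 tested transcription factors of ciliary and spermatid genes, 8 rose and 1 fell (median 0.38; 6 and 2 under library totals). Rfx1 rose from 127 ± 6.69 to 212 ± 11.4 CPM (log2 fold change 0.74), Rfx3 by 0.60 and Rfx2 by 0.42. The factor that fell was E2f5 (-0.21). RFX proteins bind a DNA element called the X-box. Promoters, 250 bases before to 50 after the annotated start, were found for 35 of the 44 members in the RefSeq table (GRCm38.p6). The letters GTTGCC, on either strand, occurred in 12 of the 35 (34.3%), against 14.1% of 27025 genes in the table. The neighbouring copies Dnah7a, Dnah7b and Dnah7c were all among the 12 and are not independent of each other. The fuller X-box consensus, with GT at its start, AT in its centre and AAC at its end at fixed spacing, was found on either strand in 4 (11.4%), against 2.99%. A match is a run of letters and not a shown binding site, and the absence of a match says only that these letters are not in the window.

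The 4 promoters with the longer form were those of Dnaaf2, Dnaaf3, Dnah17 and Zmynd10. Of these genes Dnaaf3 and Dnah17 rose, and Dnaaf2 and Zmynd10 did not pass the test. The matches of 3 of them are shown on the strand of the gene, 5′ to 3′, with the matching letters in capitals and sequence up to the annotated start at most; that of Zmynd10 reaches past its start and is not printed. Dnaaf2 lies at chr12:69198430-69198486, Dnaaf3 at chr7:4532575-4532668 and Dnah17 at chr11:118129393-118129469 of GRCm38.p6, all on the minus strand.
Dnaaf2: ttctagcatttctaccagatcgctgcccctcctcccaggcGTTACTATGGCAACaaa
Dnaaf3: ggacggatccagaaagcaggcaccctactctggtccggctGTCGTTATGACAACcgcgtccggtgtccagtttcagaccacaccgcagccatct
Dnah17: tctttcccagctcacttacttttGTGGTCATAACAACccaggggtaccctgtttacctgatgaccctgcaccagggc

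Spermatid markers rose, while markers of earlier germ cells mostly fell or did not pass the test. All 12 round spermatid markers rose (median log2 fold change 0.52, for example Izumo1 by 0.85 and Gsg1 by 0.61), and their summed level was 3053 to 3177 CPM in knockout and 1907 to 2149 in wild type. All 12 elongating spermatid markers rose as well (median 0.55, with Akap4 at 0.70 and Oaz3 at 0.59), from a sum of 17537 to 21229 CPM in wild type to 26868 to 30379 in knockout. Of 12 spermatocyte markers none rose and 6 fell (median -0.24, among them Tex101 at -0.50 and Dmc1 at -0.70), with sums of 1619 to 1867 CPM in knockout and 1890 to 2247 in wild type. Of 11 spermatogonial markers 1 rose and 8 fell (Uchl1 and Dmrt1 by 0.78 each), with sums of 265 to 289 CPM in knockout and 414 to 522 in wild type. Under library totals all 12 markers of each spermatid list still rose. The median of the members, 0.19, was smaller than those of both spermatid lists. The part of these shifts in the members' changes was not tested.

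Markers of most somatic cell types were lower. For Sertoli cells 11 of 12 were lower (Inha by 0.97 and Aard by 0.77), with sums of 1374 to 1570 CPM in knockout and 2057 to 2350 in wild type. For Leydig cells 10 of 10 were lower (Cyp17a1 by 1.16 and Lhcgr by 1.56), with sums of 937 to 1028 CPM against 1707 to 2000. Markers of peritubular myoid cells (6 of 8 lower, Myl9 by 0.67 and Ptch1 by 0.98) and macrophages (6 of 8, Mrc1 by 0.56 and Csf1r by 0.68) fell too. Of 8 endothelial markers 3 fell (37.5%, against 27.4% of all tested genes; Cdh5 by 0.46 and Eng by 0.49) and 5 did not pass the test. The summed levels of the myoid, macrophage and endothelial lists were 123 to 143, 78.4 to 99.2 and 34.5 to 40.3 CPM in knockout and 184 to 206, 118 to 135 and 39.8 to 45.8 CPM in wild type, so that the endothelial sums overlapped.

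Multiciliated cells of the efferent ducts also express outer arm genes. Of 10 of their markers 5 passed the filter on low counts, and 1, Deup1, rose, from 259 ± 13.1 to 376 ± 5.16 CPM. Ccno, the next by p, was at 4.55 ± 0.736 CPM in knockout and 5.55 ± 0.225 in wild type. The summed level of this list, 385 to 397 CPM in knockout and 256 to 286 in wild type, was nearly all Deup1. Of 8 epididymal markers 3 passed the filter and 2, Spink8 (-1.54) and Cuzd1 (-0.34), fell, with sums of 8.16 to 10.8 CPM in knockout and 11.3 to 13.5 in wild type. No marker of either list was at 0 in every library. The part of such cells in the levels of Dnah5, Dnah9 and Dnah11 was not tested.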

How the data were processed

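The authors deposited raw counts per Ensembl gene, whole numbers without normalization, in 1 column for each of 8 libraries (4 Ssty2 knockout, 4 wild type). Per the labels' protocols, TRIzol was used for extraction of RNA, DNase digestion followed, and a TruSeq kit was used for the libraries. The build was mm39 and the tools were STAR, featureCounts, Trimmomatic, FastQC and DESeq2, per the submitters' processing notes. The sources used here give no versions, annotation release, strand setting or treatment of reads that match several places. Hence copies, overlapping and antisense genes cannot be told apart.

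Totals were 18036708 to 24415587 counts per library, and a count of 0 leaves room for up to 3 counts, or 0.123 to 0.166 CPM (counting error only). Pearson's r of log2 CPM was 0.985 to 0.992 within groups and 0.959 to 0.967 across. The effect of genotype was fitted in R 4.3.3 by edgeR 4.0.16 (quasi-likelihood test on the counts, TMM scaling, filterByExpr with a minimum count of 10 and a minimum total of 15, all 21952 remaining genes in 1 fit). Calls needed a Benjamini-Hochberg adjusted p under 0.05. SE is that of the log2 fold change, taken from the F statistic, and the fit was tested on simulated counts. It missed both recovery thresholds set at first, which were for 2-fold changes. Of the 1.4-fold changes put in 47% were recovered, and of the 2-fold changes 78%. Among genes at 1 CPM or more these shares were 54.0% and 89.3%. The criterion was then changed, with those results seen, to the slope of fitted on true changes and the share of false calls. The simulation changed only 200 of 21616 genes, whereas 53.5% of tested genes were called in the real fit. Its shares therefore do not give the recovery for the members, which was not tested. A member that did not pass may still have changed by a small amount. A 2-fold change could also be missed where the SE is large, as for Dynlt1b (0.65) and Dyx1c1 (0.43). Alternatives were DESeq2 1.42.0, other scalings, filters, a length trend, summed copies, a replicate block and left-out libraries.

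Names and exon lengths came from GENCODE vM21 (GRCm38), coding sequences from its transcripts and promoters from RefSeq (GRCm38.p6). The files' build differs, so no coordinates of the files were used. Genes now called Dnai3, Dnai4, Dnai7 and Dnaaf10 carry older symbols there, which the rule does not match. The members, lists and tests were chosen with earlier results of these data known. In each role the 4 members with the smallest p have every library's value, all heavy chains and all members that fell are named, and up to 3 called genes of each pathway list and 2 of each cell type list are named by smallest p. No test was made over a list. Ratios, the Dynlt1 sums, neighbours and coding comparison, the comparison with long genes the counts with renamed genes or with members of little word sharing, and the values without knockout replicates 1 and 3 were added after the values had been seen. Genes elsewhere were also looked through for the split of the knockout libraries seen at Dynlt1b, without a test, and nothing from that is reported.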

Additional observations from a re-analysis of the deposited data

Results flagged for a closer look

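In 5 of 88 groups of 4 libraries, 1 library lay far from the other 3 by Dixon's gap-to-range ratio, where chance flags about 1 in 20 groups. Dnaaf2 in wild-type replicate 1 was at 4.787 CPM, against 7.04 to 7.45 in the other 3. Dnali1 in wild-type replicate 1 was at 176.2 CPM, against 148 to 151, and the knockout libraries were still all above it. Armc4 in wild-type replicate 3 was at 56.55 CPM, against 53.1 to 53.6, also below every knockout library. Pih1d3 in knockout replicate 2 was at 14.69 CPM, against 11.6 to 11.9, and without that library its log2 fold change was -0.26 (adjusted p = 0.0395 by edgeR's quasi-likelihood test, with a range of 0.0158 to 0.562 over its 17 alternatives). Dnah7c in knockout replicate 2 was at 186.8 CPM, against 164 to 166. The split of the knockout libraries at Dynlt1b, 2 against 2, does not meet this criterion for a single library.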

How the results depend on the processing

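Scaling by library totals gave 13 members higher and 8 lower in place of 26 and 4. Dnaaf2, Dnaaf5, Pih1d3 and Dynlt1c were then called lower too, and Dyx1c1 (-0.11), Pih1d2 (-0.10), Zmynd10 (-0.0482), Dnah2 (-0.0247), Dnah7a (-0.0477), Dnah7c (-0.0623) and Dnal1 (-0.0698), none of them called before, changed sign. With the length trend removed Dnaaf5 (0.0466), Dyx1c1 (-0.0044) and Dynlrb2 (-0.0627) changed sign. Dyx1c1 also did so without knockout replicate 2 (-0.22) or 3 (-0.15), without wild-type replicate 1 (-0.26) and without knockout replicates 1 and 3 (-0.0419). Leaving out 1 library at a time gave Dyx1c1 between -0.26 and 0.286. The cause of these changes was not tested. Leaving out 1 library gave 20 to 28 members higher and 3 to 7 lower; the 7 came without knockout replicate 2, where Dynlt1b, Dynlt1c and Pih1d3 were added. DESeq2 gave 27 and 4, size factors by relative log expression 27 and 4, no filter 27 and 6, a minimum count of 50 27 and 4, removal of the length trend 31 and 6 (all 10 inner arm heavy chains higher), summed copies 23 and 4, and members with under 10% of words shared (30 genes) 20 and 3. Same-numbered libraries had deviations with r between 0.002 and 0.08, and the main fit did not treat them as pairs. Numbers 1, 2 and 3 correlated best with their own number and number 4 with number 2, a hint from the data only; with the replicate block the counts were 27 and 6. Depth limits Dyx1c1, with 135 counts, and leaves Dnah5 and Dnah11 with the widest errors among the heavy chains.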
